A study of Mus musculus with 3 samples.

Results

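The genes of 10 antioxidant enzymes were followed in the lists of Ad4BP/SF-1 peaks from mouse Leydig cells, out of 21951 protein-coding genes of GENCODE M21 on mm10. They are *Sod1*, *Sod2*, *Cat*, *Gpx1*, *Gpx4*, *Prdx3*, *Prdx6*, *Txnrd1*, *Txnrd2* and *Gsr*. A peak was taken for a gene when it shared at least 1 bp with the gene body or with the 50 kb on either side, a stretch called the window here. By this rule 13 of the 5721 peaks from vehicle-treated cells and 6 of the 4025 peaks from cAMP-treated cells fell in the windows, at 17 separate places. Ad4BP/SF-1, encoded by *Nr5a1*, is the nuclear receptor that governs steroid-producing cells. The Leydig cells came from pooled testes of 9-week-old male mice of the ICR strain, were enriched on a Percoll density gradient, and were cultured without the cells that failed to attach. They carried no genetic change and received vehicle or cAMP, the second messenger of luteinizing hormone, at a dose and for a time not given in the sources used here. Each condition was 1 immunoprecipitated library, so that no difference between the conditions could be tested, and the input DNA was not analysed here. Peak lists hold no RNA levels, and the cell type could not be checked against its expressed markers. Of 8 genes of steroid-producing Leydig cells, 5 had a vehicle peak in the same window and 4 of these also a cAMP peak (*Cyp11a1*, *Nr5a1*, *Scarb1* and *Star*), while *Hsd3b1*, *Insl3* and *Lhcgr* had none. By the same rule 36.7% of all protein-coding genes had a vehicle peak, 28.8% a cAMP peak and 22.5% both, and with 8 genes these counts are a weak check of the cell type.

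Steroid synthesis begins in mitochondria, where cytochrome P450 enzymes pass electrons to oxygen and some of these escape as superoxide. Superoxide dismutases turn superoxide into hydrogen peroxide, which catalase, the glutathione peroxidases and the peroxiredoxins then remove. The thioredoxin reductases and glutathione reductase use NADPH to return thioredoxin and glutathione to their working, reduced form. In Leydig cells these enzymes are known for guarding the steroidogenic machinery, which oxidants can impair.

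Each list held peaks for 5 members, of which 2 were in both lists. In the vehicle list the members with a peak were *Sod1*, *Gpx1*, *Gpx4*, *Txnrd2* and *Gsr*, 5 of 10, whereas 36.7% of all protein-coding genes had a vehicle peak by the same rule. In the cAMP list they were *Cat*, *Gpx1*, *Prdx3*, *Txnrd1* and *Txnrd2*, again 5 of 10, beside 28.8% of all protein-coding genes. *Gpx1* and *Txnrd2* had a peak in both lists, 2 of 10, a share close to the background of 22.5%. *Sod1*, *Gpx4* and *Gsr* were in the vehicle list alone, beside a background of 14.2%, and *Cat*, *Prdx3* and *Txnrd1* in the cAMP list alone, beside 6.37%. The vehicle list is the longer one. With its 4025 top-scoring peaks, as many as the cAMP list holds, *Sod1* and *Gsr* dropped out, and the vehicle list had 3 of 10 members, close to its background of 29.5% at that length. This left 1 member (*Gpx4*) in the vehicle list alone, beside 9.45%, and 3 in the cAMP list alone, beside 8.85%. Both lists then shared 2 members, beside 4390 of the 21951 genes, and either list had 6, beside 38.3%. Of the shared 2, only *Gpx1* kept overlapping peaks, because the vehicle peak that overlapped the cAMP peak of *Txnrd2* scores too low. In all, 8 of 10 had a peak in either list, beside 43.1%, and *Sod2* and *Prdx6* had none. Peaks inside the genes were counted too. A peak overlapped the body of 5 members in the vehicle list, beside 12.6% of protein-coding genes, and of 3 members in the cAMP list, beside 9.15%. In either list the gene body held a peak in 7 of 10 members and in 15.4% of protein-coding genes, or in 10.3% of the 17956 that are no longer than *Txnrd1*, the longest member at 63762 bp. These shares describe the lists and were not tested.

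**Figure D1:**
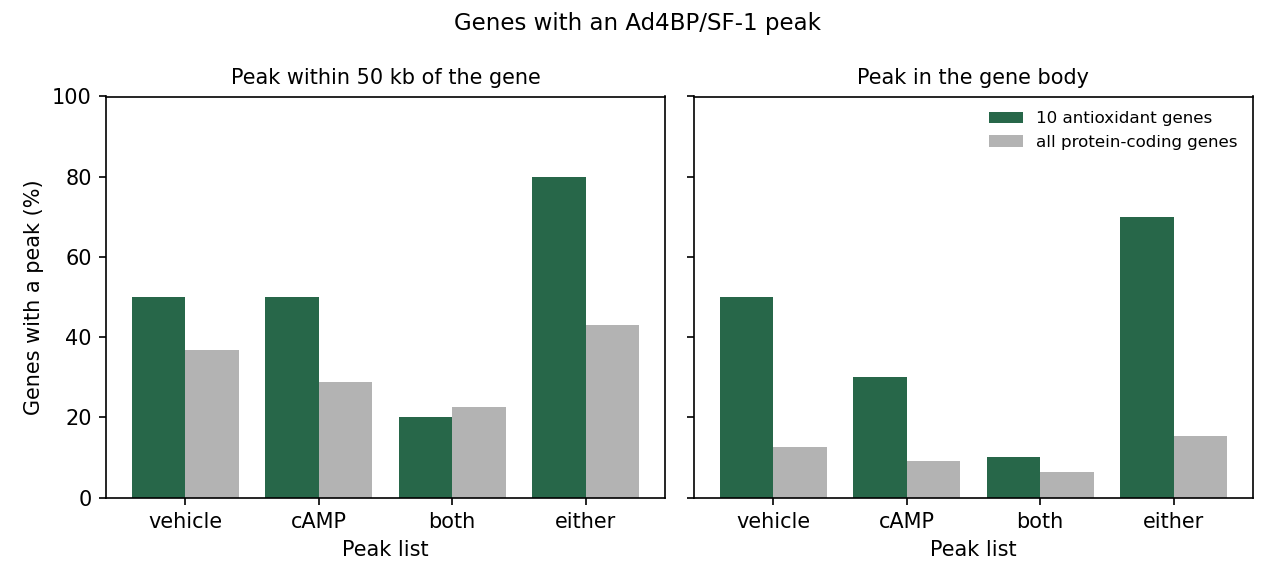
Share of genes (%) with a peak within 50 kb (left) or in the gene body (right), by peak list, for the 10 antioxidant genes (green) and all 21951 protein-coding genes (grey). The green bars exceed the grey ones in each list and for either list, while the share with a peak in both lists is close to the background within 50 kb (20% and 22.5%).

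The cytosolic copper-zinc dismutase gene *Sod1* (ENSMUSG00000022982.10, plus strand of chromosome 16, 90220754 to 90226329) had 1 peak, in the vehicle list. It ran from 90221135 to 90221503 in intron 1, centred 565 bp downstream of the TSS, the transcription start site. Its score from the peak caller MACS (its p-value on a negative log10 scale, multiplied by 10, so that a higher score is a firmer call) was 56.0 and exceeded that of 18.4% of the vehicle list. The nearest cAMP peak lay 112274 bp away. The gene of the mitochondrial manganese dismutase, *Sod2*, on chromosome 17 from 13006846 to 13040063, had no peak in its window. Its nearest vehicle peak was 295442 bp from the gene body, closest to the TSS of *Igf2r*, and its nearest cAMP peak 511483 bp. The cytosolic enzyme's gene was thus met by a weak peak in 1 list and the mitochondrial enzyme's gene by none. The *Sod1* site is printed with 40 bases on either side, read from the GRCm38 (mm10) reference, because it is the only peak at a dismutase gene among the members. Capitals mark the 8 letters taken as the SF-1 sequence, which are TCAAGGTC, TCAAGGCC, CCAAGGTC or CCAAGGCC on either strand.
Sod1, intron 1, chr16:90221332-90221419, minus strand: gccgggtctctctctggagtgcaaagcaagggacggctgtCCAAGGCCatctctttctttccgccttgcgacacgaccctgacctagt

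Among the genes of peroxide-removing enzymes, *Gpx1*, the common cytosolic glutathione peroxidase (ENSMUSG00000063856.7), was the only one of the 10 with a peak of both lists in its gene body. The gene spans 1441 bp of the plus strand of chromosome 9 from 108338903. The vehicle peak ran from 108339231 to 108339860 and scored 70.11, above 46.5% of its list. The cAMP peak ran from 108339276 to 108339785, lay wholly inside the vehicle peak, and scored 65.71, above 46.2% of its list. The peaks therefore stood at nearly the same place in the order of their lists. Both were centred in coding exon 1, 491 bp (vehicle) and 476 bp (cAMP) downstream of the 5′ end of the principal transcript, and both held the same CCAAGGCC in intron 1. The other vehicle peaks of the window, at 57.27 and 60.22, lay in introns 2 and 20 of the neighbouring *Usp4*, which encodes a ubiquitin protease, and had no cAMP counterpart.

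*Gpx4*, the glutathione peroxidase that reduces lipid peroxides within membranes (ENSMUSG00000075706.10), had 4 vehicle peaks and no cAMP peak. The gene is annotated on the plus strand of chromosome 10 from 80047166 to 80056439. The peak nearest to it, from 80052871 to 80053363, was centred 371 bp upstream of the TSS of the principal transcript, at 80053488, and overlapped the gene body only through longer annotated transcripts. It scored 85.52, above 64.2% of the vehicle list, and contained TCAAGGTC. The remaining peaks lay in introns 6, 5 and 2 of the neighbouring *Sbno2*, a transcriptional coregulator gene, with scores of 50, 54.78 and 107.77. The last of these, from 80093949 to 80094469, was the highest-scoring peak of all member windows, above 77.1% of the vehicle list, whereas the first held the lowest score of that list, at which the list begins. The nearest cAMP peak lay 53745 bp from the *Gpx4* body, just beyond the window, with a score of 76.48.

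The cAMP list alone held peaks at *Cat* and *Prdx3*. *Cat* encodes catalase of the peroxisome (ENSMUSG00000027187.10, minus strand of chromosome 2, 103453849 to 103485160). Its peak from 103481898 to 103482240 lay in intron 1, 3056 bp into the gene from the closest TSS, and its score of 65.25 exceeded that of 45.6% of the cAMP list. A second peak of the window, with a score of 69.12, lay in intron 2 of *Elf5*, an ETS factor gene. The nearest vehicle peak was 158725 bp from the *Cat* body. *Prdx3* encodes the peroxiredoxin of mitochondria (ENSMUSG00000024997.7, minus strand of chromosome 19, 60864051 to 60874556). Its cAMP peak from 60873835 to 60874319 lay in intron 1, 479 bp downstream of the TSS, with a score of 57.04, higher than 26.4% of the cAMP list. No vehicle peak came closer than 71399 bp to the gene. *Prdx6*, which encodes a cytosolic peroxiredoxin that also has phospholipase activity, had no peak, and its nearest ones were 745134 bp (vehicle) and 408775 bp (cAMP) from the gene body on chromosome 1.

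The sites in or next to the genes of peroxide-removing enzymes are printed to show letters found within the peaks. Which letters were bound is not shown by the lists. Labels give the place of the capitals, and the stretch around those of *Gpx1* runs into coding exon 1. The peak in *Sbno2* intron 2 also holds a CCAAGGCC, 103 bp from its centre, that is not printed. In the *Cat* peak, which has none of the 8-letter forms, the middle 100 bases are given, and the capitals mark TCAAGGAC, a form that was picked out after the sequence had been seen.
Gpx1, intron 1, chr9:108339539-108339626, minus strand: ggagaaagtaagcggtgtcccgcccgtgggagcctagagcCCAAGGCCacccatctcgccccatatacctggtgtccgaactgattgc
Gpx4, upstream, chr10:80053101-80053188, plus strand: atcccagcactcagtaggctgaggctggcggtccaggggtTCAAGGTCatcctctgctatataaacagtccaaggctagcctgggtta
Gpx4 window, Sbno2 intron 2, chr10:80094236-80094323, minus strand: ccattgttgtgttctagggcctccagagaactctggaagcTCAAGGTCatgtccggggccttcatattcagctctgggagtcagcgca
Prdx3, intron 1, chr19:60874056-60874143, plus strand: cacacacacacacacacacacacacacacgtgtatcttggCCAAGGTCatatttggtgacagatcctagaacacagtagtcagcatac
Cat, intron 1, chr2:103482020-103482119, plus strand: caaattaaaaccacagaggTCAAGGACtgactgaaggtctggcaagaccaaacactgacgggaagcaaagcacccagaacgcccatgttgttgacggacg

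Of the reductase genes, *Txnrd2*, for the mitochondrial thioredoxin reductase (ENSMUSG00000075704.16, plus strand of chromosome 16, 18426384 to 18479073), had 4 vehicle peaks and 1 cAMP peak. Inside the gene lay vehicle peaks alone. One, from 18451617 to 18451979, was in intron 8 of the principal transcript, 241 bp upstream of an internal annotated TSS, and scored 64.68. The other, from 18459198 to 18459742, was in intron 11 and scored 92.14, above 69.0% of the list. The nearest cAMP peak to these was 67092 and 74673 bp away. More than 40 kb upstream, in intron 2 of *Arvcf*, a catenin gene, both lists held a peak. It scored 57.14 in the vehicle list (18383981 to 18384575) and 57.68 in the cAMP list (18384046 to 18384525), and the cAMP peak lay wholly inside the vehicle peak. A further vehicle peak in the same *Arvcf* intron scored 62.14.

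*Txnrd1*, for the cytosolic thioredoxin reductase (ENSMUSG00000020250.10, plus strand of chromosome 10, 82833951 to 82897712), had no peak in its body. Its only peak, in the cAMP list from 82936587 to 82936899, lay between genes 38875 bp beyond the 3′ end and scored 68.41, and the closest protein-coding TSS was that of *Chst11*. The nearest vehicle peak was 727543 bp from *Txnrd1*. *Gsr*, for glutathione reductase (ENSMUSG00000031584.16, plus strand of chromosome 8, 33652523 to 33698163), had 1 vehicle peak, from 33684589 to 33685123 in intron 8. It scored 58.43, above 24.7% of the vehicle list, and the nearest cAMP peak was 101573 bp from the gene. Thus the thioredoxin reductase genes and *Gsr* each had a peak, but at no TSS of their principal transcripts. The sites below are the ones in the gene bodies, the site shared by both lists, and the *Txnrd1* site. The *Txnrd2* intron 11 peak has none of the 8-letter forms, and capitals in its middle 100 bases mark CCAAGGAC, again picked out after the sequence had been seen.
Txnrd2, intron 8, chr16:18451715-18451802, plus strand: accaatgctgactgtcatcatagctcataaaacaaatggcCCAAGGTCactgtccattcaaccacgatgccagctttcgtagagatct
Txnrd2, intron 11, chr16:18459421-18459520, minus strand: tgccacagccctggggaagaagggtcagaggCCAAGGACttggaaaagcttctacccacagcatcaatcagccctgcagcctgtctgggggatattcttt
Txnrd2 window, Arvcf intron 2, chr16:18384268-18384355, minus strand: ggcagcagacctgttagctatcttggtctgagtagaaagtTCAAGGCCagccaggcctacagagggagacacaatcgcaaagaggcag
Txnrd1 window, between genes, chr10:82936724-82936811, minus strand: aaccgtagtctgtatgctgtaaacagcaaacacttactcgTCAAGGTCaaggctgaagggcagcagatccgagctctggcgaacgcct
Gsr, intron 8, chr8:33684840-33684927, plus strand: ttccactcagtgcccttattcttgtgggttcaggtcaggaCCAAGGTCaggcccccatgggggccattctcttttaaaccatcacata

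**Figure D2:**
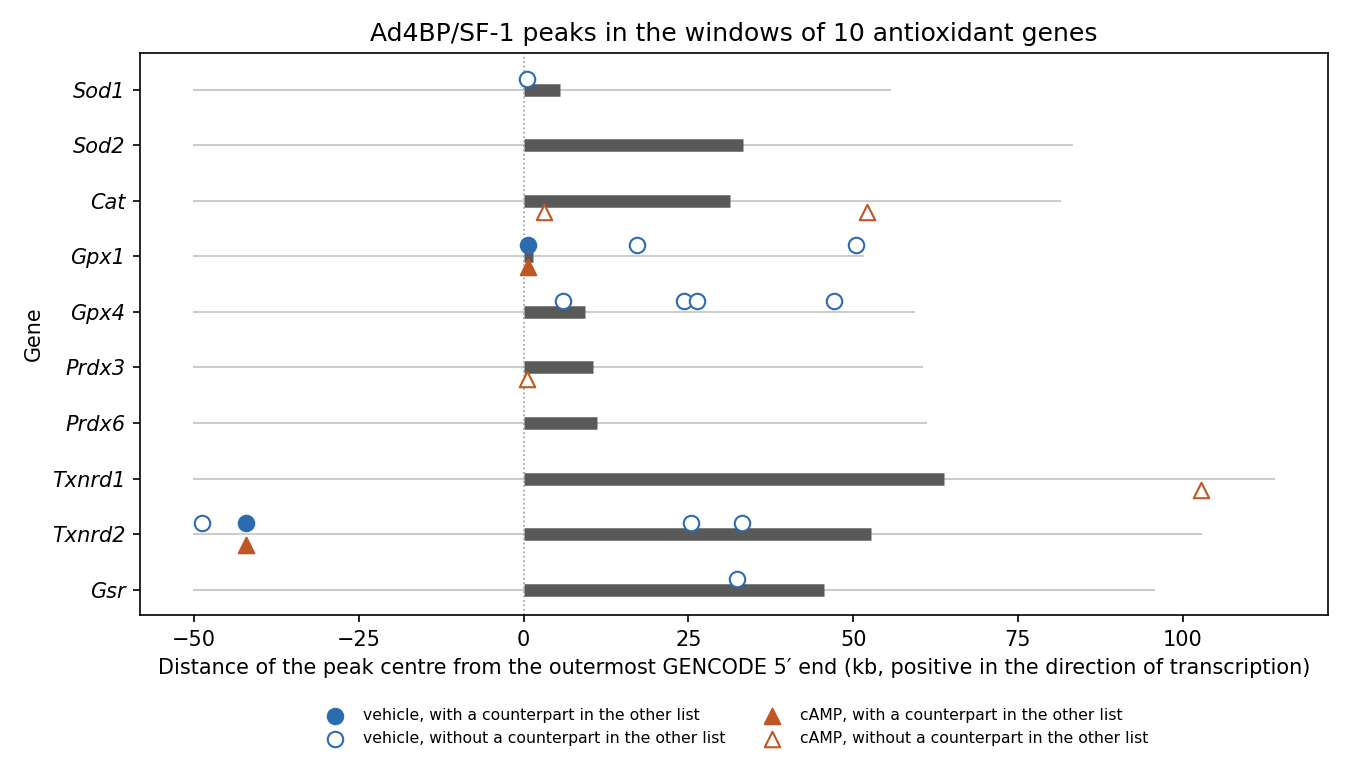
Position of the peak centres relative to the outermost annotated 5′ end of each gene (kb, positive in the direction of transcription). Dark bars are gene bodies, grey lines the windows, circles vehicle peaks and triangles cAMP peaks, filled where the other list holds an overlapping peak. Filled symbols occur at *Gpx1* and upstream of *Txnrd2* only, and *Sod2* and *Prdx6* have no symbol.

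The place of the peaks in the windows was uneven. A member's body was overlapped by 6 of the 13 vehicle and 3 of the 6 cAMP peaks. For the same numbers of peaks the nearest protein-coding TSS was the member's own. Centres within 1 kb of an annotated TSS of the member were found for 4 vehicle peaks (*Sod1*, *Gpx1*, *Gpx4* and *Txnrd2*) and 2 cAMP peaks (*Gpx1* and *Prdx3*). Counting the TSS of any protein-coding gene, 5 of the 13 vehicle peaks (the fifth next to *Usp4*) and 2 of the 6 cAMP peaks had one at that distance or nearer, beside 13.9% (vehicle) and 11.8% (cAMP) of the whole lists. Of the 10 peaks outside the members' bodies, 9 lay in introns of *Usp4*, *Sbno2*, *Elf5* or *Arvcf*, so that their assignment to the member rests on the window alone. Just inside the limit of 50 kb lay vehicle peaks 48866 bp from *Gpx1* and 48540 bp from *Txnrd2*, and just outside it the cAMP peak 53745 bp from *Gpx4*. The next closest, among members without a peak of that list, was the vehicle peak 71399 bp from *Prdx3*. With the gene body alone, the cAMP list had 3 members with a peak, and 1 member had a peak in both lists, beside 6.42% of protein-coding genes.

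The scores were modest. The vehicle peaks of the windows scored from 50 to 107.77, with a median of 60.22, whereas the whole vehicle list had a median of 72.39 and reached 904.96. The cAMP peaks of the windows scored from 57.04 to 69.12, with a median of 65.5, whereas the whole cAMP list had a median of 67.85 and reached 803.27. Only 3 peaks, at *Gpx4* (2) and *Txnrd2*, scored at least 75, and all were vehicle peaks. Above that score, which 2666 vehicle and 1622 cAMP peaks reach, the cAMP list had no peak in any of the 10 windows, beside 14.6% of protein-coding genes, and the vehicle list had one in 2 of 10, beside 22.4%. The lists begin at a score of 50, and regions below it are not in them, so that a missing counterpart does not show an unbound region. Scores rise with depth, which is unknown for these libraries, and equal scores need not stand for equal enrichment.

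**Figure D3:**
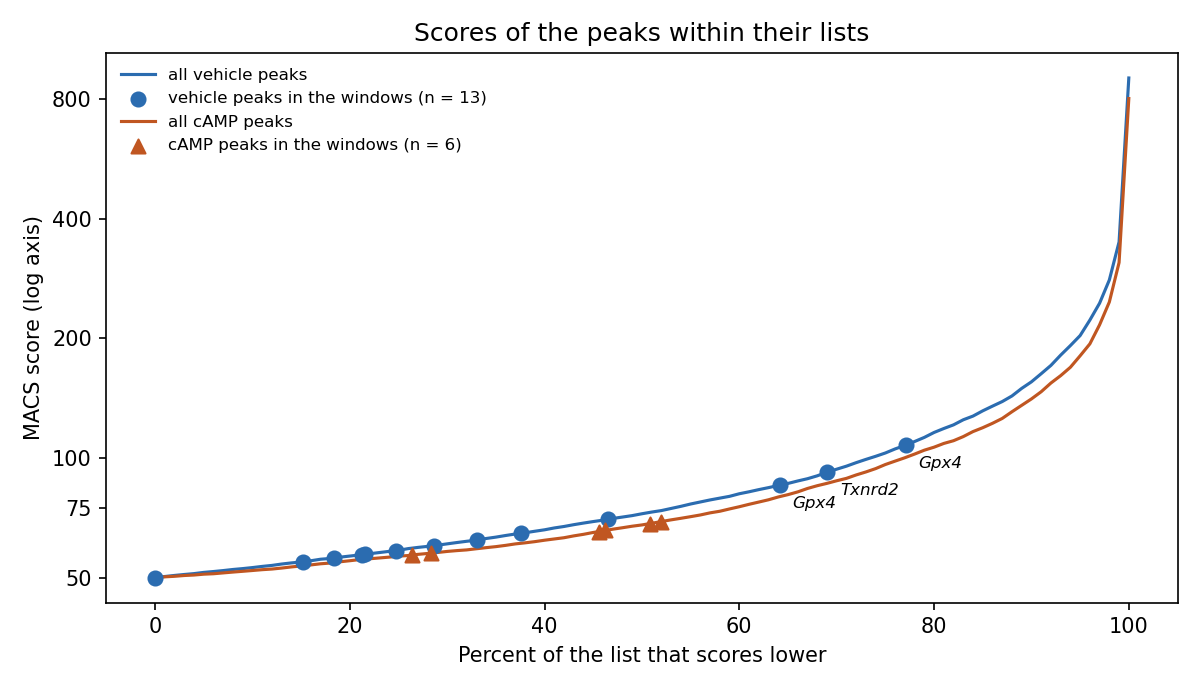
MACS score (log axis) of the 13 vehicle peaks (circles) and 6 cAMP peaks (triangles) of the windows against the percent of the list that scores lower, with lines for all peaks of each list. The cAMP peaks lie between 57.04 and 69.12, and only *Gpx4* (2 peaks) and *Txnrd2* in the vehicle list exceed 75.

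Between the conditions, few places were held in common. A cAMP peak overlapped 2 of the 13 vehicle peaks in the windows and 37.9% of the vehicle list. At the same 2 places a vehicle peak overlapped 2 of the 6 cAMP peaks, beside 53.8% of the cAMP list. These were the *Gpx1* gene and *Arvcf* intron 2, and their scores differed between the lists by less than 5. The remaining 11 vehicle and 4 cAMP peaks had no overlapping peak in the other list, and for each the nearest peak of the other list was at least 6202 bp away. With 1 library per condition, the treatment and the variation between libraries cannot be told apart for a peak in 1 list alone.

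The SF-1 sequence was present in 10 of 13 vehicle and 5 of 6 cAMP peaks, shares close to those over all peaks (80.4% and 77.1%). Counted once per place there were 14 copies, of which 5 read TCAAGGTC and 3 each read TCAAGGCC, CCAAGGTC and CCAAGGCC. The copies lay 22 to 103 bp from the centre of their peak, with a median of 44.5 bp, close to the 45 bp over all vehicle peaks. In 13 of 14 copies the next letter was A, as in 81.4% of copies in all vehicle peaks and 84.4% in all cAMP peaks. At 3 places all 8 letters lay in sequence that the reference marks as repeated (*Usp4* intron 2, upstream of *Gpx4*, and the *Arvcf* site shared by both lists), and in *Sod1* intron 1 the last 7 of the 8 did. Over all peaks all 8 letters do so in 36.1% of vehicle and 40.9% of cAMP copies. Reads with more than 1 position had been left out, which bears on repeated sequence. The peaks without the 8 letters were those in *Cat* intron 1, *Txnrd2* intron 11, *Usp4* intron 20 and the upstream *Arvcf* site of the vehicle list. The TCAAGGAC and CCAAGGAC marked in the first and second of these were picked from these same sequences, so that their presence there is no finding. The *Txnrd2* intron 11 peak, the second highest of the windows by score, is thus among those that lack the usual letters.

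**Figure D4:**
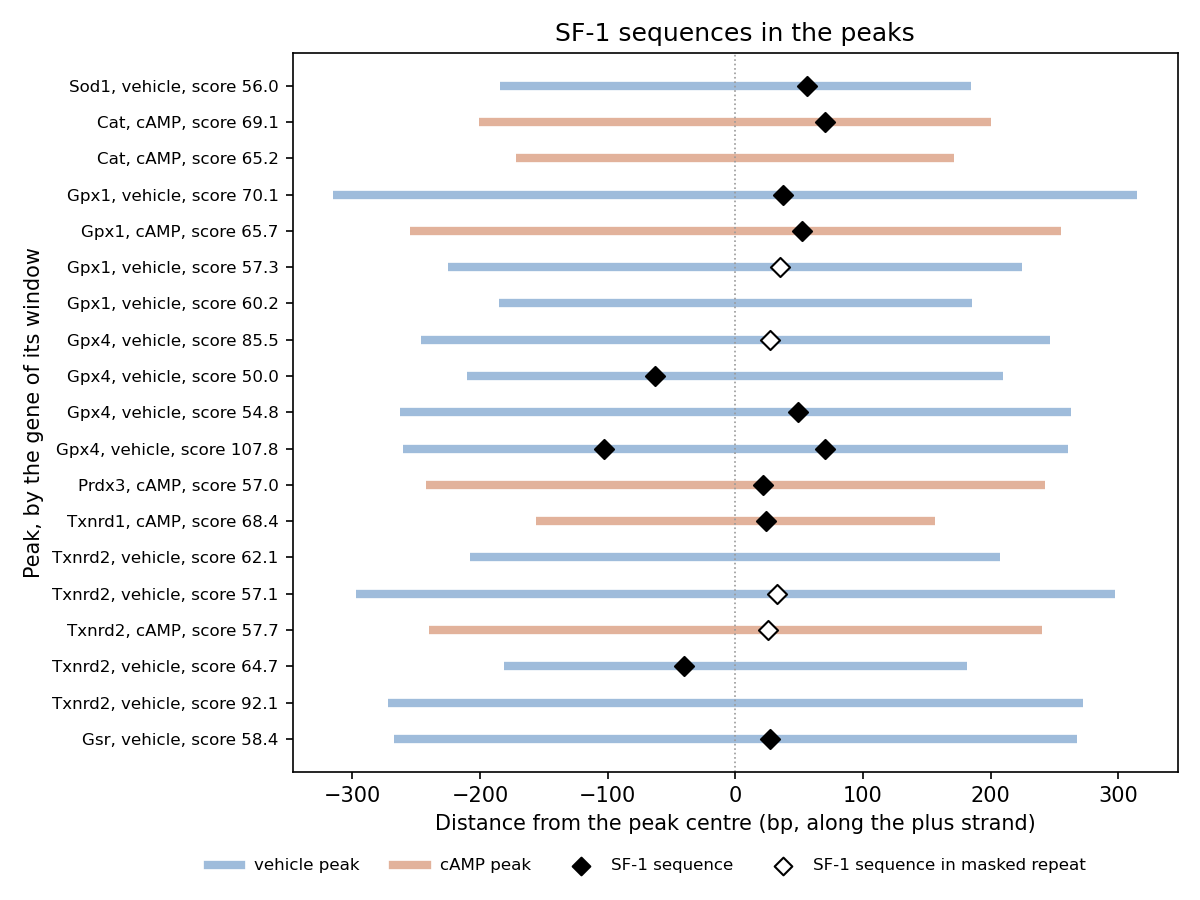
Position of each copy of the SF-1 sequence (diamonds, white where all 8 letters are in masked repeat) relative to the peak centre (bp), with bars for the width of each peak, ordered by member. All copies lie within 103 bp of the centre, and 4 peaks have none.

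Other letters were searched on both strands of the same peaks. The cAMP response element TGACGTCA, the usual site of the CREB proteins that cAMP activates, was in none of the 19 peaks, beside 0.699% of all vehicle and 0.77% of all cAMP peaks. TGACNNNGC, the core of the antioxidant response element bound by the NRF2 regulator, was in 4 of 13 vehicle peaks, beside 21.4%, and in 0 of 6 cAMP peaks, beside 20.4%. The vehicle peaks with this core were those in *Sod1* intron 1, *Usp4* intron 20, and *Sbno2* introns 6 and 5. In the 3 of these peaks that also hold the SF-1 sequence, no copy of one overlapped a copy of the other. GC content of the vehicle peaks ran from 43.56% to 57.14%, with a median of 54.7% against 48.2% over the list, and that of the cAMP peaks from 43.64% to 57.06%, with a median of 52.0% against 47.4%. CpG was densest in the *Gpx1* peaks (5.87 and 6.27 per 100 bp) and the *Sod1* peak (5.69 per 100 bp), which lie at the 5′ ends of their genes, whereas the list medians were 1.15 (vehicle) and 1.06 (cAMP) per 100 bp.

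The promoters of the members, taken as 250 bases before to 50 bases after the start in RefSeq on GRCm38.p6, gave 13 sequences for 8 members, with no entry for *Gsr* and *Prdx6*. An SF-1 sequence was found in 2 of them, beside 5.73% of the 32851 promoters of the table. One was in a *Txnrd2* promoter, 57 bases before the start, and one in the *Sod2* promoter, 59 bases before the start. No peak of either list lay at either place. The sites are printed with 11 bases on either side because they are the promoters among the members that hold the letters without a peak.
Txnrd2 promoter: cactcacctcgTCAAGGCCgcgcacaggtc
Sod2 promoter: gcggggcggggCCAAGGCCgatggtggggg

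TGACNNNGC was in a promoter of *Sod1* and 1 of *Txnrd1*, beside 12.4% of the table, and TGACGTCA was in no member promoter, beside 1.79%.

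A list of 39 other antioxidant genes was read by the same rule. In each list 17 of them had a peak within 50 kb (43.6%), in both lists 12 (30.8%), and in either list 22 (56.4%), beside the same shares of 36.7%, 28.8%, 22.5% and 43.1% for all genes as above. Among the overlapping pairs of that list, the pair whose lower score was highest lay in *Ccs*, which encodes the chaperone that loads copper into SOD1. Its coding exon 3 on chromosome 19 held overlapping peaks that scored 136.08 (vehicle, 4833921 to 4834439) and 140.65 (cAMP, 4833993 to 4834435), both above every peak in the windows of the 10 members. *Sesn1*, a sestrin gene, had overlapping peaks in intron 1 that scored 57.49 and 82.41, and the highest peak of its window, at 206.49 in the vehicle list with an overlapping cAMP peak at 111.99, lay in intron 2 of *Cep57l1*. *Msrb3*, for a methionine sulfoxide reductase, had overlapping peaks in intron 1 that scored 97.5 and 58.33. *Prdx2* and *Slc7a11*, for a cytosolic peroxiredoxin and the cystine transporter, had peaks of both lists within 10 kb, but at different places.

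The highest peaks of several other groups lay in or nearest to neighbouring genes. The highest peak of the glutathione peroxidase windows (93.71, cAMP) was in intron 9 of *Tnip1*, near *Gpx3*, and *Gpx2*, *Gpx5*, *Gpx6* and *Gpx8* had none. The highest of the peroxiredoxin windows (97.07, vehicle), in that of *Prdx5*, was closest to a TSS of *Esrra*, upstream of it. For the thioredoxins, *Txnip*, which encodes an inhibitor of thioredoxin, had 3 vehicle peaks, the highest of which (82.97) was in an intron of *Gm16253*, while *Txn1*, *Txn2* and *Txnrd3* had none. The highest in the glutathione synthesis windows (81.93, cAMP) overlapped the *Slc7a11* body only through longer annotated transcripts, 91123 bp from the closest TSS of that gene. Among glutaredoxins that of *Glrx5* (81.84, vehicle) was in intron 1 of *Syne3*. The NRF2 gene *Nfe2l2* had a cAMP peak in intron 1 (84.29) and a vehicle peak 18296 bp from the gene (51.68). The NRF2 target *Hmox1*, for haem oxygenase, had a vehicle peak 14441 bp from the gene (64.55), and *Nqo1* had none.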

How the data were processed

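The lists were deposited as BED files, 1 for vehicle and 1 for cAMP. Reads had been mapped by the authors with Bowtie (0.12.8 per the submitters' processing notes, while the methods name another version) to mm10, those with a single position were kept, and peaks were called with MACS without its fragment model. The methods state a looser p-value limit than the score of 50 at which the lists begin. Whether the input was the control for peak calling is not given in the sources used here. The deposited score is the p-value of a peak on a negative log10 scale, multiplied by 10, and the lists hold no read numbers, so that the depth is unknown.

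Genes were those of GENCODE M21, and sequences were read from GRCm38.p6, the assembly of mm10 and of the C57BL/6J strain, whereas the cells were from ICR mice. Overlaps, ranks, distances and motif searches were obtained in Python (3.11.15) using pandas (2.3.3), numpy (2.4.6) and, for plots, matplotlib (3.10.9). The functions were tested on simulated data. Distances run from the peak centre to the nearest annotated TSS unless stated, and coordinates count from 1. Exons and introns are those of the principal transcript. A counterpart shares at least 1 bp. Alternatives for window, score, overlap and motif were tried. With 1 library per condition no test was made.

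The members and lists were chosen with earlier results of these data known. Genes named are the members, the genes at or nearest to their peaks and, of the related list, those that both lists place a peak within 10 kb of, and the highest peak of each group. *Nfe2l2*, *Nqo1* and the related genes named as having no peak were chosen after their values had been seen.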

Additional observations from a re-analysis of the deposited data

How the results depend on the processing

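Shares in parentheses are those of all protein-coding genes under the same rule. A score minimum of 75 left 2 members with a vehicle peak (22.4%), 0 with a cAMP peak (14.6%) and 0 with both (11.1%), and a minimum of 100 left 1 (14.6%), 0 (9.12%) and 0 (6.69%). The peaks with a counterpart fell from 2 to 0 in each list at both scores, and those with the SF-1 sequence from 10 to 2 and 1 (vehicle) and from 5 to 0 and 0 (cAMP), since only 3 and 1 vehicle peaks and 0 cAMP peaks of the windows remain. Over the whole lists at 75 and 100, 37.3% and 38.6% of vehicle and 61.4% and 63.3% of cAMP peaks had a counterpart. The SF-1 sequence was in 85.6% and 87.5% of those vehicle peaks and in 89.8% and 92.0% of those cAMP peaks. With the same number of top-scoring peaks, 4025, from both lists, which drops vehicle peaks below a score of 60.65, the vehicle list had 3 members (29.5%). Members in the vehicle list alone fell from 3 to 1 (from 14.2% to 9.45%) and those in either list from 8 to 6 (from 43.1% to 38.3%). Each list then had 1 of 6 window peaks with a counterpart, beside 46.5% of the peaks of either list. With the gene body only, 10 kb or 20 kb on either side, or peaks nearest to the member's TSS, the cAMP list had 3 members (9.15%, 13.9%, 18.2% and 12.4% in that order) and 1 member had a peak in both lists (6.42%, 10.1%, 13.5% and 8.67%). The vehicle count stayed at 5 under each of these narrower rules (12.6%, 19.3%, 24.6% and 16.6%). With 100 kb 4 members had a peak in both lists (34.0%). The median distance of the vehicle peaks from the member's TSS, 15854 bp, was 26288 bp from the outermost 5′ end, 25381 bp from the principal transcript (added after seeing the data) and 38211 bp for the 1 peak that scores at least 100. No cAMP peak remained for that alternative. The other 18 values stayed within 1.5 times. The cause of these changes was not tested beyond the numbers of peaks and bases that each rule leaves. No replicate existed to leave out.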
